A study of Homo sapiens with 72 samples.

Results

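The cytosolic ribosomal protein (RP) genes encode the proteins of the ribosomes that translate nuclear mRNAs, and their expression was examined across all compounds and doses of a population RNA-seq dataset. Members were the protein-coding genes whose GENCODE symbol has the form RPL or RPS followed by a number, P0 to P2 or A, with the suffixes used for copies of these genes, matched by Ensembl gene identifier. This gave 86 genes, 53 of the large and 33 of the small subunit, out of 60371 genes listed, of which 56104 had a GENCODE symbol. RPS4Y2 has a matching symbol and was not analysed here. In all, 85 members passed the filter on low counts in every comparison, and RPS4Y1 did not.

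All libraries came from U2OS, an established human osteosarcoma line, collected 12 h after treatment. Doses are those of the labels, and the study's methods write the middle dose differently. There were 18 wells with DMSO and 54 wells with a compound, 3 wells for each of 6 compounds at 100 nM, 1000 nM and 10000 nM. The compounds were triptolide (JAA804 in the labels), which blocks transcription through the XPB subunit of TFIIH, homoharringtonine (LEE837), which stops the ribosome early in elongation, the JNK inhibitor pyrazolanthrone (AML108), the BCR-ABL kinase inhibitor nilotinib (AMN107), the alpha-glucosidase inhibitor miglitol (BGW675) and the allosteric AKT inhibitor MK-2206 (LHD510). Nothing in the labels says that wells were separate cultures on separate days, so p-values measure the spread between these wells, and every compound was compared with the same 18 DMSO wells. Depth ranged from 70767 to 68296309 assigned reads, and 3 libraries were under 10 mil: triptolide 100 nM replicate 2, triptolide 1000 nM replicate 1 and DMSO replicate 10. No pair of wells within a group was a duplicate. Mesenchymal markers were abundant in DMSO (VIM at 1452 to 2039 TPM, a unit scaled for transcript length and depth), although COL1A2 and TWIST1 were at or near 0, and the summed epithelial, blood and endothelial markers stayed at or below 13.5 TPM.

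RP mRNAs are among the most abundant and most stable mRNAs of a growing cell. Most of them start with a C and a run of pyrimidines, the terminal oligopyrimidine (TOP) motif, through which LARP1 and the mTOR pathway set their translation and stability. Cells need RP in equal numbers, and an RP that is not built into a ribosome is degraded; free RPL5 and RPL11, bound to 5S rRNA, inhibit MDM2. A few members are copies of another RP gene, which is called the parent here.

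The start of the mRNA was read from RefSeq sequence (GRCh38.p14) for the 69 members with an entry. A TOP-like start, defined as a run of at least 5 pyrimidines that begins with C at the first base of the mRNA and is counted from there, was present in 48 of the 69 (69.6%), compared with 5.14% of all 27305 symbols in the same table. The windows below show 10 bases before and 20 bases from the first base of the mRNA, 5′ to 3′ on the strand of the gene, with the pyrimidine run that opens the mRNA in capitals. RPS12, RPSA and RPLP1 were among the members with the highest log2(Fold Change) with triptolide, RPL29 had the lowest with homoharringtonine, and RPS9 and RPL10A were higher with both compounds on the main scale. RPL36AL and RPL10L are shown beside their parents RPL36A and RPL10 because the copies and the parents differed in their response.
RPS12, chr6:132814559-132814588, + strand: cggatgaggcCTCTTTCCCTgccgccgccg
RPSA, chr3:39406710-39406739, + strand: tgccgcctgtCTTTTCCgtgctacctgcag
RPLP1, chr15:69452808-69452837, + strand: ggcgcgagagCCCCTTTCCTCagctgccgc
RPL29, chr3:51995876-51995905, - strand: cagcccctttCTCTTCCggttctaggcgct
RPS9, chr19:54200848-54200877, + strand: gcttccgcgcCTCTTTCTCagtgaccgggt
RPL10A, chr6:35468391-35468420, + strand: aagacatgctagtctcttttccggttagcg
RPL36A, chrX:101391001-101391030, + strand: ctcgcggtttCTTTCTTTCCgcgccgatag
RPL36AL, chr14:49620607-49620636, - strand: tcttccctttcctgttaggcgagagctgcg
RPL10, chrX:154398367-154398396, + strand: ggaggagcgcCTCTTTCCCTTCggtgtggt
RPL10L, chr14:46651762-46651791, - strand: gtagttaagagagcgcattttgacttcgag

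The pyrimidine run of RPL10A lies inside the first 20 bases rather than at the first base, and that of RPL36AL begins upstream of its annotated first base and runs for only 3 bases from there, so neither counted as a TOP-like start. RPL10L had no such run in the window. RPL10 had 3 annotated starts, and the one with the run is shown.

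In DMSO, 80 of the 86 members were at or above 100 TPM, a scale that accounts for length, and 52 of the 100 genes with the highest mean TPM were RP genes. RPS2, a protein at the mRNA entry channel, was the most abundant at 7050 ± 958 TPM (mean ± SD, n = 18), followed by RPS29 at 6890 ± 1977 TPM and RPS27 at 5627 ± 732 TPM. The ranges of these 3 genes over the DMSO wells overlapped, at 5531 to 8879 TPM for RPS2, 2017 to 9418 TPM for RPS29 and 3969 to 6722 TPM for RPS27. The lowest of the tested members were copies: RPL10L at 67.8 TPM, RPL39L at 55.0 TPM and RPL3L, the muscle form of RPL3, at 0.423 TPM. The plot of levels in DMSO shows that the members of both subunits were spread along the same range, with copies at its low end.

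**Figure D1:**
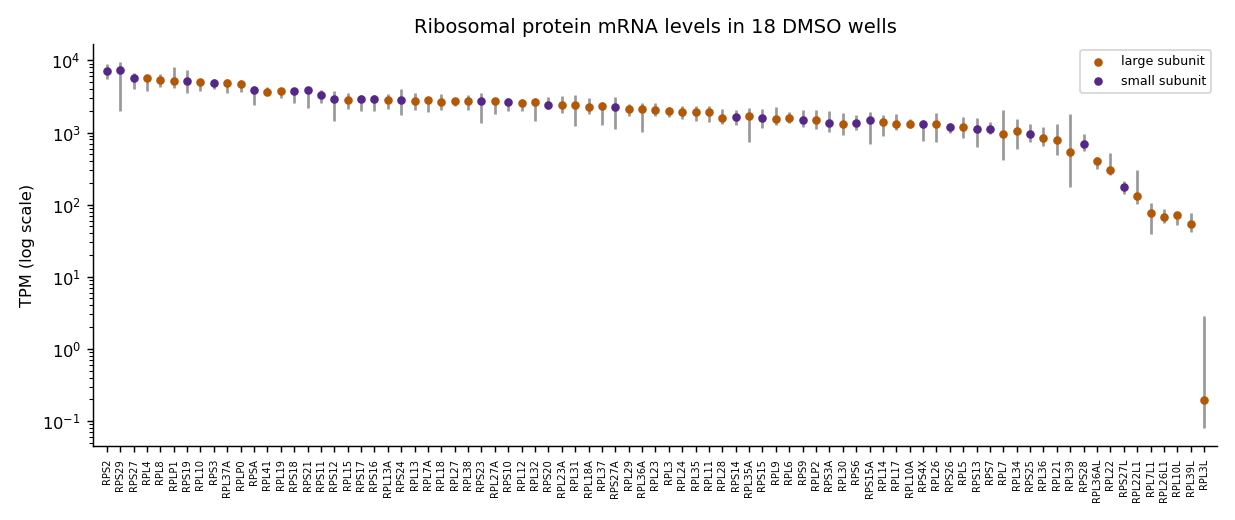
Level of 83 RP genes in the 18 DMSO wells, as TPM on a log axis, with genes ordered by level; dots are medians and lines run from the lowest to the highest well. The highest mean is 7050 TPM for RPS2, and the copies RPL10L, RPL39L and RPL3L lie lowest.

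The share of all assigned reads that fell on RP genes gave a first view of the compounds that does not depend on a scaling factor. In DMSO it was 7.03% ± 0.685 (SD, n = 18), with a lowest well of 5.69%, a median of 7.14% and a highest well of 7.99%. With triptolide it was 10.5% at 100 nM, 9.54% at 1000 nM and 9.95% at 10000 nM (SD 0.525, 0.535 and 0.162, n = 3 each), and all 9 wells lay above every DMSO well. With homoharringtonine it was 7.32% at 100 nM, 5.79% at 1000 nM and 5.12% at 10000 nM (SD 0.0674, 0.784 and 0.369, n = 3 each). All 3 wells at 10000 nM and 1 well at 1000 nM lay below every DMSO well, whereas the wells at 100 nM lay inside the DMSO range. For the other compounds every well lay inside that range except 1 MK-2206 well at 10000 nM, at 8.98%. In bulk RNA, fewer cells and less RNA per cell cannot be told apart, and a share says how much of the mRNA was RP mRNA, not how much there was per cell.

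**Figure D2:**
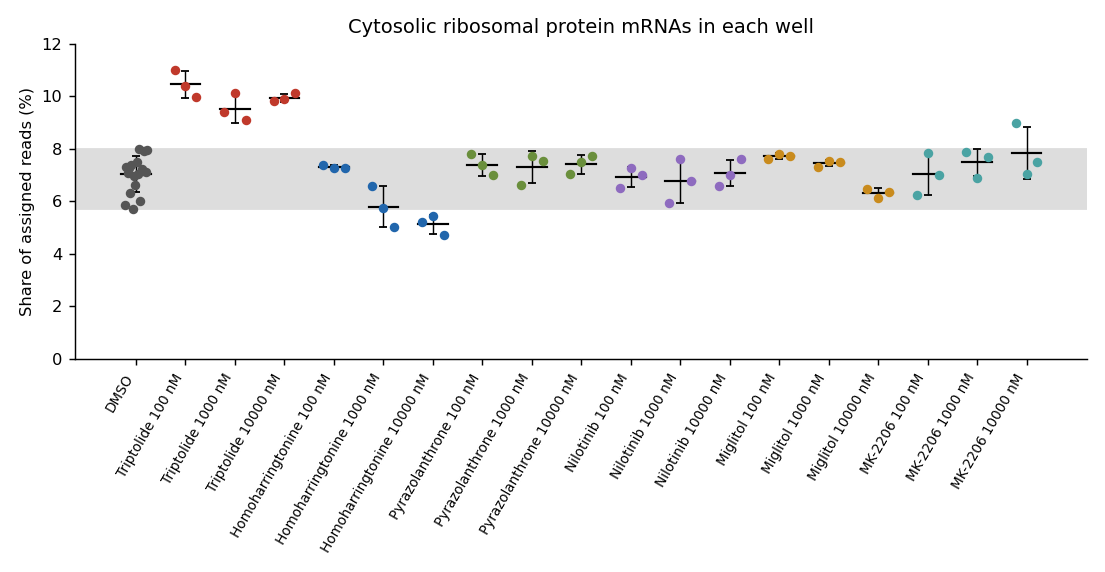
Percent of assigned reads on RP genes in each well, by compound and dose; points are wells, bars mean ± SD, and the grey band is the range of the 18 DMSO wells (5.69% to 7.99%). The 9 triptolide wells lie above the band and the 3 homoharringtonine wells at 10000 nM below it.

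Triptolide at 10000 nM gave higher values for 79 of the 85 tested members and lower values for 3 on the main scale (trimmed mean of M-values, TMM; edgeR's quasi-likelihood test, adjusted p under 0.05), whereas none was higher and all 85 were lower when the 13 mitochondrially encoded mRNAs were used as the scale. Of all genes tested, 32.2% were called higher and 39.7% lower on the main scale, and 0.0647% and 98.3% on the mitochondrial scale. The median log2(Fold Change) of the members was 1.005 (SD 0.436 over members), and 44 members passed a log2(Fold Change) of 1, as did 16.2% of all genes. At 1000 nM 72 members were called higher and 3 lower (28.8% and 38.6% of all genes), with a median of 0.848, and at 100 nM 68 were called higher and 1 lower (24.5% and 32.3% of all genes), with a median of 0.771. On the mitochondrial scale 1000 nM gave 0 higher and 85 lower (0.0377% and 95.5% of all genes), and 100 nM gave 0 higher and 57 lower (0.903% and 80.2%). At all 3 doses 65 members were called higher on the main scale, as were 15.4% of all genes, and 0 on the mitochondrial scale. With library sizes as the scale the members called higher and lower were 59 and 4 at 100 nM (15.3% and 43.6% of all genes), 47 and 5 at 1000 nM (16.8% and 50.0%) and 58 and 5 at 10000 nM (17.9% and 53.2%), and 44 members were higher at all 3 doses (8.05%).

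The scales moved all genes together, so the position of the RP genes among the other genes hardly changed. At 10000 nM the median of all genes tested was -0.165 on the main scale, -0.698 with library sizes and -2.92 on the mitochondrial scale, and the RP median exceeded it by 1.17, 1.17 and 1.14. The share of reads on the 13 mitochondrial mRNAs, which are made by a separate polymerase, was 0.243% in DMSO and 1.09% with triptolide at 10000 nM. By well it ran from 0.1377% to 0.3673% in DMSO and from 1.007% to 1.151% with triptolide. The lowest and highest DMSO wells had sequenced fragments of 154.5 and 217.3 bases, while the well with the shortest, 143.8 bases, was at 0.2252%. A link to fragment length was not tested, and this scale varied between DMSO wells too. None of these scales measures mRNA per cell, and no added RNA standard was used here, so an increase or a decrease of RP mRNA per cell cannot be read from these libraries.

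**Figure D3:**
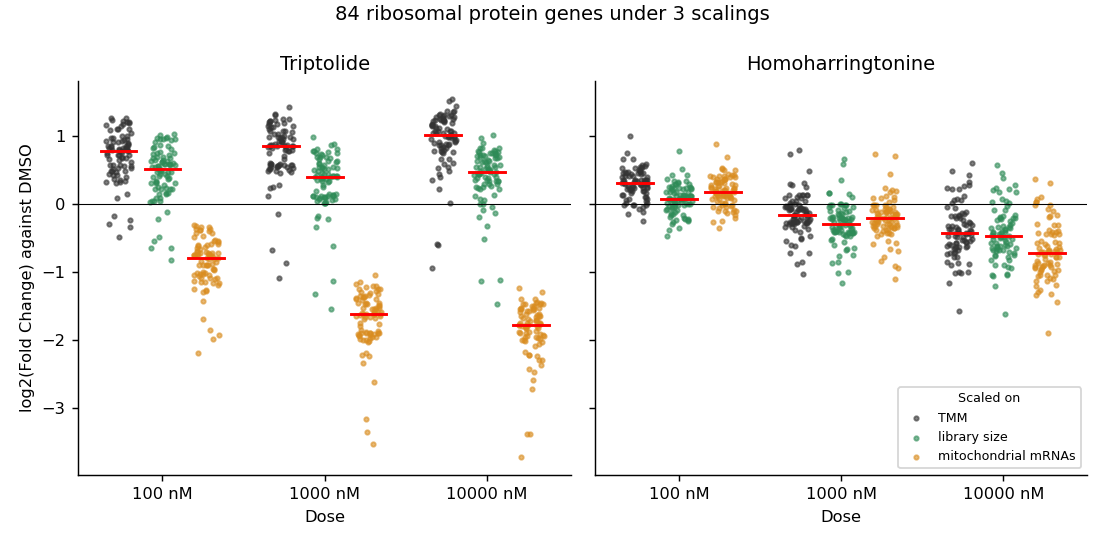
Log2(Fold Change) of 84 RP genes with each dose of triptolide and homoharringtonine against DMSO under 3 scalings (TMM, library sizes, mitochondrial mRNAs). Points are genes, the red bar is their median, and RPL3L is left out for its very low level. With triptolide at 10000 nM the median is 1.005 with TMM and -1.78 with mitochondrial mRNAs as the scale. Its direction thus depends on the scale. With homoharringtonine at 10000 nM the median is below 0 on all 3 scales. At 100 nM of homoharringtonine it is above 0 on all 3, at 0.305, 0.079 and 0.185 in the order listed.

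The members called higher at 10000 nM covered every functional part of the ribosome that was examined, on the TMM scale and with a reversed sign on the mitochondrial scale. The 3 proteins of the P stalk, which recruits the elongation factors, moved closely together: log2(Fold Change) was 1.36 ± 0.107 (SE) for RPLP0, 1.36 ± 0.128 for RPLP1 and 1.30 ± 0.146 for RPLP2. RPLP0 stood at 2130 to 3513 CPM (TMM-scaled counts per 1e6 reads) in the DMSO wells, with a median of 3018 CPM, and at 7426, 7829 and 8495 CPM in the triptolide wells. The groups did not overlap. Along the path of the mRNA and at the decoding site, 4 proteins were called: RPS2 at 1.36, RPS3 at 0.99, RPS15 at 1.18 and RPS23 at 1.005. The partners of 5S rRNA were called too, RPL5 at 0.78 and RPL11 at 1.16, as were 4 proteins on the side of the peptidyl transferase centre, RPL3 at 0.99, RPL4 at 0.49, RPL8 at 0.84 and RPL10 at 1.05. RPS6, the substrate of S6 kinase, was at 0.98 ± 0.140. With library sizes the value of RPL4 was -0.05 and that of RPL13A was -0.10, below 0, while the other proteins named in this paragraph kept a positive value.

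RPS12, RPSA, RPS21, RPLP1 and RPS2 had the 5 highest values on the TMM scale at 10000 nM. RPS12 was at 396 CPM in the lowest, 913 CPM in the middle and 1152 CPM in the highest DMSO well, and at 2755, 2886 and 2487 CPM with triptolide, a log2(Fold Change) of 1.54 ± 0.165 (SE, edgeR's quasi-likelihood test, adjusted p = 8.5e-09). RPSA, also known as the laminin receptor, was at 1310 to 2819 CPM in DMSO with a median of 2495 CPM, and at 6573, 7028 and 7370 CPM with triptolide, a log2(Fold Change) of 1.51 ± 0.134. For both genes every triptolide well was far above every DMSO well. That separation was common: for 74 of the 85 members all 3 wells at 10000 nM lay above all 18 DMSO wells, as they did for 24.7% of all genes tested, and for 2 members all 3 lay below (24.6% of all genes). All 32 tested small-subunit members were called higher (median 1.16) and 47 of the 53 large-subunit members (median 0.917). The small-subunit genes took 2.85% of reads in DMSO and 4.47% at 10000 nM, and the large-subunit genes 4.17% and 5.49%.

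RPL36AL, RPL10L and RPL39L, all copies of other RP genes, were the 3 members called lower with triptolide at 10000 nM, and they were called lower with library sizes and on the mitochondrial scale too. RPL36AL was at 123 to 188 CPM in DMSO, with a median of 151 CPM, and at 86.1, 80.3 and 77.9 CPM at 10000 nM, a log2(Fold Change) of -0.94 ± 0.116. RPL39L fell from a DMSO median of 21.3 CPM to 14.98, 15.68 and 12.54 CPM, a log2(Fold Change) of -0.60 ± 0.142. For both genes the 3 triptolide wells lay below every DMSO well, by a narrow margin for RPL39L, whose lowest DMSO well was at 15.72 CPM and highest triptolide well at 15.68 CPM. RPL39L was also the 1 member called lower at 100 nM, where the shallow replicate 2 held no read of it, and it was called without that library as well (adjusted p = 0.026 by edgeR). RPL23, RPL7L1 and RPL3L were not called at 10000 nM, with values of 0.21, 0.01 and 0.31. RPL23 stood at 731, 710 and 789 CPM beside 455 to 819 CPM in DMSO.

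The course over triptolide doses depended on the scale. Over the 9 wells on the TMM scale, 3 members rose with log10 dose and 2 fell (6.93% and 17.8% of all genes), with library sizes 1 rose and 9 fell (5.24% and 19.7%), and on the mitochondrial scale 0 rose and 74 fell (0.267% and 53.2%), with a median slope of 0.058, -0.029 and -0.498. On the TMM scale RPS12, RPSA and RPS27L rose by 0.34, 0.25 and 0.32 per unit of log10 dose, and RPL36AL and RPL13 fell by 0.40 and 0.27. The TMM calls depended on single libraries: without triptolide 100 nM replicate 3 no member rose or fell, and without replicate 1 of that dose 12 rose. Without the libraries under 10 mil, 1 rose and 1 fell.

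Homoharringtonine at 10000 nM gave lower values for 52 members and higher values for 4, where 37.2% of all genes were called lower and 36.7% higher (edgeR's quasi-likelihood test, adjusted p under 0.05). The median log2(Fold Change) was -0.428, beside -0.051 for all genes tested, and the lower calls were 56 with library sizes (38.5% of all genes) and 49 with the mitochondrial mRNAs as the scale (38.4%). The changes were small. RPL29, RPL36AL, RPL13 and RPL31 passed a log2(Fold Change) of -1, as did 23.4% of all genes, and RPL27A stood at -0.9991. At 1000 nM 14 members were called lower and 5 higher (33.4% and 35.0% of all genes), with a median of -0.155. At 100 nM 35 were called higher and 0 lower (31.1% and 32.3% of all genes), with a median of 0.305. At an unadjusted p under 0.05 no member was lower at 100 nM either, DESeq2 called 28 higher and 1 lower (29.9% and 33.8% of all genes), library sizes gave 11 higher and 6 lower (23.9% and 40.3%), and the mitochondrial scale gave 3 higher and 0 lower (23.3% and 27.9%). At 1000 nM the lower calls went from 14 to 38 with library sizes (37.9% of all genes) to 23 without the libraries under 10 mil (34.0%) and to 5 on the mitochondrial scale (28.4%), and were 30, 11 and 9 when replicate 1, 2 or 3 of the treated wells was left out. All 14 members called lower at 1000 nM were called lower at 10000 nM as well.

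RPL29, a small basic protein on the surface of the large subunit, had the lowest value. It was at 578 to 1034 CPM in DMSO with a median of 774 CPM, at 715, 756 and 871 CPM at 100 nM, at 573, 380 and 348 CPM at 1000 nM, and at 277, 276 and 266 CPM at 10000 nM. The wells overlapped DMSO at 100 nM and lay below every DMSO well at the higher doses, and log2(Fold Change) at 10000 nM was -1.58 ± 0.151 (adjusted p = 1.4e-09). RPL31 went from a DMSO median of 503 CPM to 259, 265 and 233 CPM (-1.01 ± 0.201), and RPL27A from 780 CPM to 391, 394 and 373 CPM (-0.9991 ± 0.117). RPL27A did not overlap DMSO, whose lowest well was at 496 CPM, while RPL31 overlapped the lowest DMSO well, at 221 CPM. For RPL31 that well was replicate 10, which held 0.46 mil reads. In the other 17 DMSO wells RPL31 was at 346 CPM or more, above every homoharringtonine well at 10000 nM. The P stalk was called lower in full, with RPLP0 at -0.62, RPLP1 at -0.53 and RPLP2 at -0.71. Along the mRNA path RPS2 and RPS3 were called lower, at -0.73 and -0.61, while RPS15 and RPS23 were at -0.33 and -0.32 and not called. RPL11 was called lower at -0.45 and its partner RPL5 was not, at 0.05. RPS6 was at -0.15 and not called, and RPL6, which the study also knocked out in a separate experiment, was called lower at -0.40. RPS14 and RPS19, both mutated or deleted in failures of red cell formation, were called lower at -0.88 and -0.52.

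In all, 4 members were called higher at all 3 doses of homoharringtonine: RPL10A, RPS9, RPL10L and RPL3L. Of all genes 23.1% were higher at all 3 doses. With library sizes RPL10A lost the joint call, and on the mitochondrial scale RPL3L alone kept it (18.8% and 16.7% of all genes). RPL10A was at 383 to 572 CPM in DMSO with a median of 497 CPM, and at 697, 696 and 729 CPM at 100 nM, 642, 638 and 558 CPM at 1000 nM and 626, 628 and 575 CPM at 10000 nM. All of these wells but 1 at 1000 nM lay above the highest DMSO well, and log2(Fold Change) at 10000 nM was 0.27 ± 0.089, although it was -0.02 on the mitochondrial scale. RPS9 had a DMSO median of 651 CPM and 967, 948 and 828 CPM at 10000 nM, a log2(Fold Change) of 0.43 ± 0.133, with 1 well inside the DMSO range, which reached 912 CPM. RPL3L was nearly silent in DMSO, with a median of 0.236 CPM in the 18 wells, and stood at 2.80, 2.54 and 2.29 CPM at 10000 nM, a log2(Fold Change) of 3.27 ± 0.362. Its highest DMSO value, 3.50 CPM, was in replicate 10, which held 0.46 mil reads, and RPL3L stayed far below every other tested member in level.

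Across the 9 homoharringtonine wells, 71 of the 85 members fell with log10 dose and 0 rose (22.9% and 21.1% of all genes), with a median slope of -0.387 per unit of log10 dose. At an unadjusted p under 0.05 there were 76 falling and 1 rising, a threshold for which the share of all genes is not given, and DESeq2 gave 72 (24.1% of all genes) and 1. The falling members were 58 with library sizes (15.3% of all genes) and 44 on the mitochondrial scale (14.7%). RPL29 had the steepest slope at -0.79 ± 0.084, followed by RPL31 at -0.68 ± 0.079 and RPL36AL at -0.59 ± 0.073. For 14 members (2.42% of all genes) the call changed side with dose on the TMM scale: they were higher than DMSO at 100 nM, lower at 10000 nM, and falling in the trend. RPL6 was one of them, at 1135, 1090 and 1098 CPM at 100 nM, above the DMSO range of 611 to 1050 CPM, and at 649, 684 and 630 CPM at 10000 nM, in its lower part. The lowest DMSO well was replicate 10, which held 0.46 mil reads. In the other 17 DMSO wells RPL6 was at 731 to 1050 CPM, above all 3 wells at 10000 nM. With library sizes 2 members, RPL10 and RPL4, changed side in this way (1.45% of all genes), and on the mitochondrial scale 0 did (0.932%). The lines of log2(Fold Change) by dose show the course on the TMM scale; on the mitochondrial scale the triptolide medians were -0.802, -1.623 and -1.779 at the 3 doses.

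**Figure D4:**
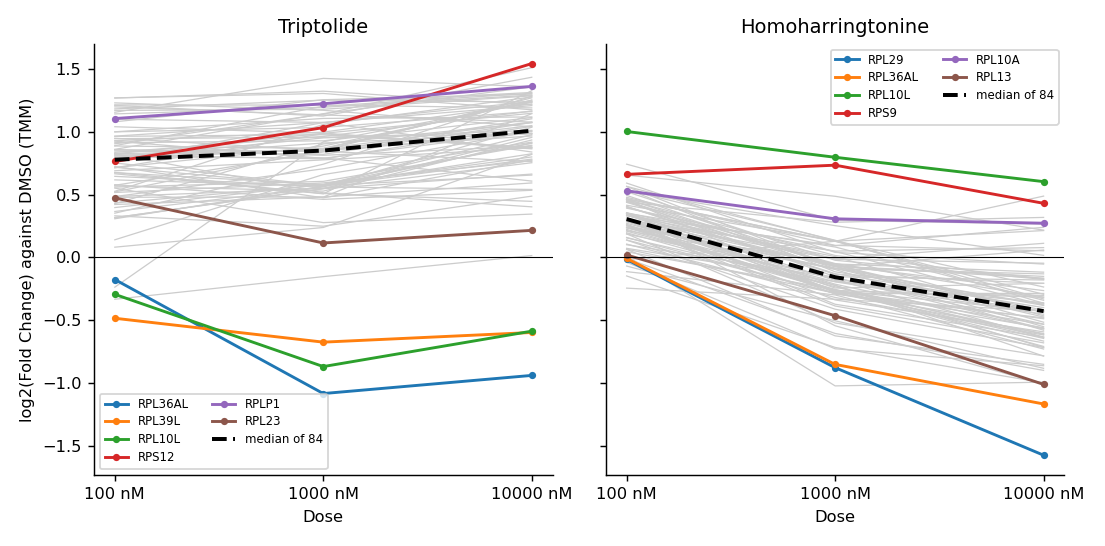
Log2(Fold Change) against DMSO (TMM scale) of 84 RP genes at 100, 1000 and 10000 nM of triptolide and homoharringtonine, on a log dose axis; each line is a gene, with named genes in colour and the median dashed, and RPL3L is left out. With triptolide most lines stay above 0 at all doses on this scale, which reverses on the mitochondrial scale, and with homoharringtonine the lines fall from a median of 0.305 to -0.428.

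Set directly against homoharringtonine at 10000 nM, triptolide gave higher values for 81 members and lower values for 2 (41.4% and 47.0% of all genes), 68 of them past a log2(Fold Change) of 1 (30.2% of all genes), with a median of 1.49, whereas on the mitochondrial scale all 85 were lower (88.4% of all genes, with 4.58% higher). RPL29 differed by 2.32 ± 0.083, RPS2 by 2.17 ± 0.092 and RPLP0 by 2.06 ± 0.067. The 2 members that were lower with triptolide were RPL10L, at -1.10 ± 0.084, and RPL3L. At 1000 nM 64 members were higher and 2 lower (27.9% and 38.9% of all genes), and at 100 nM 43 and 3 (29.7% and 35.8% of all genes). At 100 nM the balance turned to 9 higher and 24 lower when at least 10 counts were required in every well, and leaving out 1 well gave 30 to 54 higher and 3 to 6 lower. That filter drops every gene with fewer than 10 counts in triptolide 100 nM replicate 2, which held 70767 reads. The TMM scale was then computed on the genes left. The share of all genes is not given for the filter or the left-out wells, so these counts do not single out the members. On the mitochondrial scale the counts at 1000 nM became 0 and 73 (1.56% and 79.4% of all genes), and those at 100 nM 0 and 79 (3.93% and 77.1%). RPS2 shows the contrast by well: its DMSO wells ran from 2097 to 4121 CPM, with a median of 3161 CPM, the triptolide wells at 10000 nM were at 7472, 8249 and 8947 CPM, and the homoharringtonine wells at 2041, 1970 and 1716 CPM. All 3 triptolide wells were above, and all 3 homoharringtonine wells below, every DMSO well.

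A ratio of a copy to its parent within a well needs no scale, and 7 such pairs were tested against DMSO at each dose of triptolide and homoharringtonine. Of these 42 exact permutation tests (two-sided, 3 against 18 wells), 20 had a Benjamini-Hochberg adjusted p under 0.05, and the smallest p that the design can give is 0.000752. The call or the sign changed in 4 of the 42 without the libraries under 10 mil, and in 8 with TPM in place of counts. RPL36AL and RPL36A encode nearly the same protein. Their log2 ratio was -1.18 ± 0.297 (SD, n = 18) in DMSO, and it was lower by 1.23, 1.98 and 2.22 at 100, 1000 and 10000 nM of triptolide, with all wells below every DMSO well (exact permutation test, adjusted p = 0.0021 at each dose). In levels, RPL36A went from a DMSO median of 368 CPM to 832, 845 and 902 CPM with triptolide at 10000 nM while RPL36AL fell. With homoharringtonine both were lower at 10000 nM, and their ratio differed by -0.709 (exact permutation test, adjusted p = 0.0021).

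RPL10L, a form of RPL10 known for its role in the male germ line, was called lower with triptolide and higher with homoharringtonine at 10000 nM. Its DMSO wells were at 20.3 to 33.7 CPM with a median of 31.6 CPM. With triptolide it was at 19.28, 21.49 and 19.98 CPM at 10000 nM, with 2 of the 3 wells below every DMSO well, and with homoharringtonine at 47.4, 46.1 and 43.7 CPM, above all of them. The log2 ratio of RPL10L to RPL10 was lower than in DMSO by 1.32, 1.72 and 1.62 at the 3 doses of triptolide, and higher by 0.446, 0.682 and 0.848 at those of homoharringtonine, in every well (exact permutation test, adjusted p = 0.0021 for each of the 6). RPL10L and RPL10 share most of their coding sequence, so how RSEM divided reads between them is uncertain, as it is for RPL36AL, RPL39L and RPL26L1 and their parents. RPL22L1 fell relative to RPL22 at all triptolide doses, by 0.771 at 10000 nM, and RPL7L1 relative to RPL7 by 0.970 (exact permutation test, adjusted p = 0.0021 for both). With TPM in place of counts the RPL22L1 difference at 10000 nM was -0.811 and missed the threshold (exact permutation test, adjusted p = 0.051). By TPM it missed the threshold at 1000 nM too (exact permutation test, adjusted p = 0.084) and was called at 100 nM (adjusted p = 0.0029). The RPL7L1 difference was called on counts at all 3 triptolide doses. At 100 nM it was not called without the libraries under 10 mil, at -0.508 (exact permutation test, adjusted p = 0.13). By TPM it was called at 10000 nM (exact permutation test, adjusted p = 0.012) but not at 100 and 1000 nM (adjusted p = 0.11 and 0.053). RPL22L1 to RPL22 was also lower by 0.739 and 0.704 at 1000 and 10000 nM of homoharringtonine on counts, but by TPM the differences were -0.255 and 0.0687 and neither was called. RPL39L to RPL39 was lower by 2.02 with triptolide at 10000 nM (exact permutation test, adjusted p = 0.0056) and was not called at the other doses or with homoharringtonine. Its DMSO wells ran from -3.319 to -0.5468, and 2 of the 3 triptolide wells at 10000 nM lay below them. The parents RPL39 and RPL7 correlated with fragment length in DMSO (r of 0.704 and 0.687), and no ratio was tested with fragment length as a covariate. RPS27L and RPL26L1 had no called difference from their parents.

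**Figure D5:**
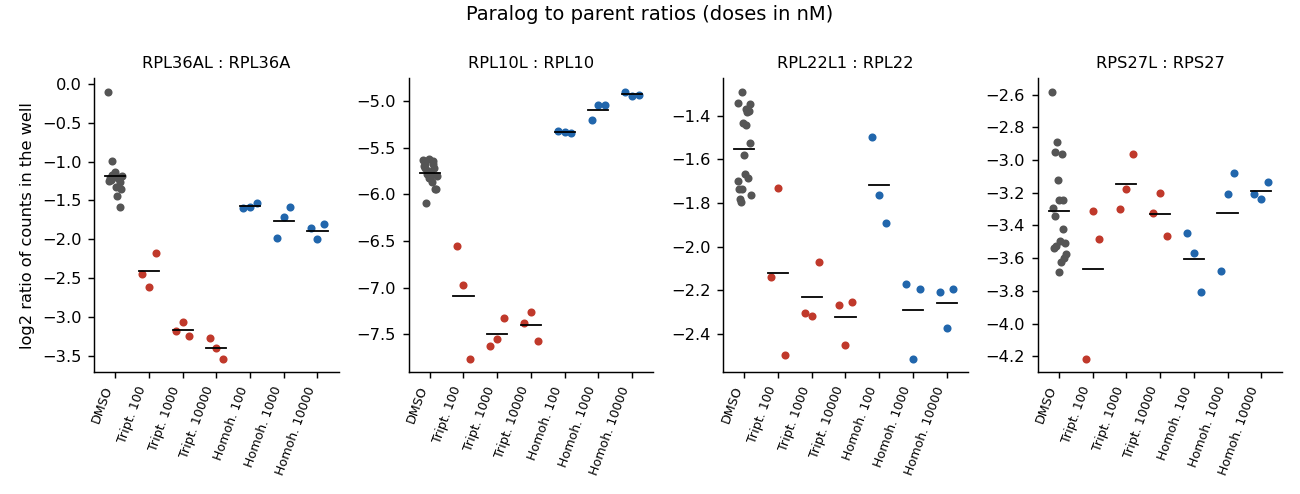
Log2 ratio of the copy to its parent gene in each well for 4 of the pairs, in DMSO and at each dose of triptolide and homoharringtonine; points are wells and bars are means. The RPL36AL to RPL36A ratio falls from a mean of -1.18 in DMSO to -3.40 with triptolide at 10000 nM, and the RPL10L to RPL10 ratio falls with triptolide and rises with homoharringtonine.

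The TOP-like start did not divide the members cleanly. It was defined at the annotated first base, and 58 of the 69 members with an entry (84.06%) had such a run within the first 20 bases, beside 31.38% of all symbols. The set without a TOP-like start therefore includes members such as RPL4 and RPL9, whose run lies a few bases further in. With triptolide at 10000 nM on the TMM scale, 47 of 47 tested members with such a start were called higher (median 1.05), and 18 of 21 without it were called higher and 2 lower (median 0.885). With homoharringtonine at 10000 nM, 32 of the 47 were called lower and 1 higher (median -0.534), and 9 of the 21 were called lower and 2 higher (median -0.303). Of all genes, 32.2% were called higher and 39.7% lower with triptolide, and 36.7% and 37.2% with homoharringtonine. The 9 of 21 lower with homoharringtonine lies near that share. The 2 sets overlapped in value, and their difference was not tested. RPL36AL, which was the second lowest of all members with homoharringtonine at -1.17, was in the set without. The 28 members that carry snoRNA genes in their introns had nearly the same medians as the other 57 tested members, 1.042 and 1.003 with triptolide and -0.429 and -0.428 with homoharringtonine.

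With pyrazolanthrone, nilotinib, miglitol and MK-2206 at most 5 members were called at a dose on the TMM scale. On the mitochondrial scale 41 members were lower with nilotinib at 10000 nM (52.0% of all genes), with a median of -0.740. Single wells mattered: over the 3 doses together, 17 were higher and 12 lower without nilotinib 100 nM replicate 1, and 9 higher and 4 lower without pyrazolanthrone 100 nM replicate 1, while 1 was higher without replicate 2 or 3 of either. The share of all genes is not given for these left-out wells, so the counts do not single out the members. With pyrazolanthrone at 100 nM, 5 members, RPL18, RPL35, RPL36 and RPS28 among them, were called higher and 0 lower (3.2% and 1.56% of all genes), and these wells had short fragments, 151 to 155 bases beside a DMSO median of 189 bases. With fragment length as a covariate none of the 5 was called (0.00543% of all genes were higher). RPS28 was at 314, 401 and 494 CPM in these wells and at 181 to 403 CPM in DMSO. RPS28 was the single member called higher with nilotinib at 100 nM (5.5% of all genes were higher and 3.58% lower), at 256, 519 and 451 CPM, with 1 well inside the DMSO range. RPL39L, whose protein lies in the peptide exit tunnel, was the single member called at 10000 nM with both pyrazolanthrone (3.35% of all genes called higher and 4.3% lower) and nilotinib (7.97% and 6.39%). It was at 32.6, 33.5 and 32.0 CPM with pyrazolanthrone and at 26.0, 28.3 and 31.3 CPM with nilotinib, beside at most 26.3 CPM in DMSO, so that all 3 pyrazolanthrone wells and 2 nilotinib wells exceeded every DMSO well. Log2(Fold Change) was 0.60 ± 0.116 (adjusted p = 0.0017) and 0.44 ± 0.121 (adjusted p = 0.015), and on the mitochondrial scale 0.22 and -0.26, neither called. No member was called at 1000 nM of either compound (0 at an unadjusted p under 0.05, with 0.0% of all genes called for pyrazolanthrone, and 2.51% higher and 1.44% lower for nilotinib).

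With miglitol, edgeR called 0 members and 0.0% of all genes at each dose. At 10000 nM 24 members were lower and 2 higher at an unadjusted p under 0.05, and DESeq2 also called 0. Counts at an unadjusted p are given in this paragraph without the share of all genes, so they do not single out the members. With MK-2206, edgeR called 0 members at each dose and over the dose trend. Of all genes, 0.0594% were higher and 0.0054% lower at 100 nM, 1.2% and 0.318% at 1000 nM, 2.21% and 0.948% at 10000 nM, and 0.028% rose and 0.0% fell in the trend. At an unadjusted p under 0.05, 12 members were higher and 1 lower at 1000 nM, and 4 were higher and 0 lower at 10000 nM. DESeq2 called RPL3 higher at 10000 nM, at 0.38 (adjusted p = 0.022), and 0 members at the lower doses. The median log2(Fold Change) of the RP genes was 0.061, 0.086 and 0.125 at the 3 doses of this AKT inhibitor. With fragment length as a covariate it was 0.094, 0.055 and 0.074. With miglitol the medians were 0.21, 0.14 and -0.21 in the same order of doses, so medians of this size also arose where no gene was called.

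Genes that work with the RP were read from lists of the same tests at 10000 nM, where 32.2% of all genes were called higher and 39.7% lower with triptolide, and 36.7% and 37.2% with homoharringtonine. Among other proteins of the ribosome or its surface, FAU and RACK1 were called higher with triptolide on the TMM scale, at 1.14 and 0.47, and FAU and RACK1 lower with homoharringtonine, at -0.30 and -0.94. With library sizes RACK1 was at -0.07 with triptolide, and on the mitochondrial scale no gene of these lists was called higher. Of 19 translation factors with TOP mRNAs, 15 were called higher and 2 lower with triptolide, and 4 higher and 5 lower with homoharringtonine. Among these, the poly(A)-binding protein PABPC1 was at 1.36 and -0.24, and the helicase EIF4A2 at -1.12 and 3.50. Of 18 genes of the mTOR pathway and TOP mRNA binding, 9 were called higher and 6 lower with triptolide, and 7 higher and 9 lower with homoharringtonine. LARP1, the protein that binds the TOP start, was at 0.29 with triptolide and at -3.55 ± 0.115 with homoharringtonine (edgeR, adjusted p = 4.4e-18). The chaperones that carry new RP to assembly split with triptolide, 5 higher and 3 lower of 8, with GRWD1, the chaperone of RPL3, at -4.06, and with homoharringtonine 2 of 8 were lower. MDM2 and CDKN1A were at -0.94 and -0.72 with triptolide and at 0.62 and 1.28 with homoharringtonine, and all 4 values were called. Of 11 genes of ribosome stalling and rescue, 5 were higher and 4 lower with triptolide, and 4 higher and 3 lower with homoharringtonine.

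The mitochondrial RP genes, which build the ribosome of the mitochondrion, and the proteasome genes were counted in the same tests. With triptolide at 10000 nM on the TMM scale, 21 of 78 mitochondrial RP genes were called higher and 37 lower (median -0.296), and 25 of 37 tested proteasome genes were called higher and 6 lower (median 0.627), beside 79 and 3 of the 85 cytosolic members (median 1.005). Of all genes tested, 32.2% were called higher and 39.7% lower with triptolide (median -0.165), which is near the shares of the mitochondrial RP genes. With homoharringtonine the medians of these lists were -0.196, 0.094 and -0.428 in the same order, beside -0.051 for all genes tested. These values are side by side as descriptions, with no test between the lists.

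The spread among DMSO wells set what could be seen. Over the 17 wells above 10 mil, the coefficient of variation of TMM-scaled CPM had a median of 16.3% in the 80 members at or above 100 TPM, from 9.52% for RPL6 to 67.8% for RPL39. RPL39 ran from 31.6 to 252 CPM, which is wider than the differences tested for most members. It moved with the length of the sequenced fragments, which ran from 144 to 217 bases between wells. Of the 85 members, 5 correlated positively and 42 negatively with it (Pearson's r, permutation test with 100000 resamples, adjusted over all genes; 19.7% and 10.8% of all genes), and all 47 kept the sign of r without the 2 wells with the most extreme lengths. For RPL39 r was 0.704 (permutation test, adjusted p = 0.012) and Spearman's rho 0.782 (adjusted p = 0.0031), with r of 0.822 without the 2 wells. For RPL29 r was -0.849 (permutation test, adjusted p = 0.0030) and rho -0.882 (adjusted p = 0.0014), with r of -0.822. Fragment lengths with triptolide at 10000 nM were 178 to 197 bases, inside the DMSO range, and with homoharringtonine at 10000 nM 184 to 231 bases, with 1 well above it. With fragment length as a covariate, 80 members were higher and 3 lower with triptolide at 10000 nM on the TMM scale (33.8% and 40.8% of all genes), and 5 higher and 49 lower with homoharringtonine (36.8% and 37.7%).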

How the data were processed

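Population RNA-seq of 72 U2OS wells was analysed. The authors prepared stranded TruSeq poly(A) libraries and ran RSEM against GRCh38; the submitters' processing notes also list HTSeq and DESeq2, and tool versions and the release of the Ensembl reference are not given in the sources used here. The deposited expected counts are RSEM estimates of reads per gene, and the deposited TPM values were scaled by the authors for length and depth. After rounding to whole numbers, expected counts went into edgeR's quasi-likelihood test (version 4.0.16 under R 4.3.3; filterByExpr with a smallest count of 10, TMM factors, Benjamini-Hochberg adjustment over all genes), separately for each compound and dose against 18 DMSO wells; DESeq2 1.42.0 was an alternative. "Called" means an adjusted p under 0.05. The main scale is TMM; library sizes, the 13 mitochondrial mRNAs, a replicate block, filters, fragment length, left-out wells and shallow libraries were alternatives, some chosen after seeing the data, as were the scales of joint calls, the copy to parent ratios and fragment length correlations. Symbols came from GENCODE release 44. A few genes of the lists are not reported here. Scripts were tested on simulated counts.

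Members and lists were chosen with earlier results of these data known. Named genes were fixed role lists, parents of copies, the 5 highest and 5 lowest members at 10000 nM with a mean of at least 10 CPM, and the 3 highest and 3 lowest in DMSO; others named were all members of a small call set, or chosen after their values were seen (RPL31 slope, fragment length examples). Intervals between wells cover these wells only.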

Additional observations from a re-analysis of the deposited data

Results flagged for a closer look

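In each case the 2 compounds or doses moved members in opposite directions, or reads outside the main measurement rose above their level in DMSO. Between triptolide and homoharringtonine at 10000 nM, 49 members were called higher with the first, lower with the second and different in the direct test (edgeR's quasi-likelihood test, TMM scale), as were 17.1% of all genes. The direct test used the same treated wells, and the count was 49 without it too, so it added no separate evidence. With library sizes there were 42 (10.9%), and on the mitochondrial scale 0, with no member higher with triptolide. Between 100 nM and 10000 nM of homoharringtonine, 14 members were called higher at the low dose, lower at the high dose and falling in the dose trend on the TMM scale (2.42% of all genes), 2 with library sizes (1.45%) and 0 on the mitochondrial scale (0.932%).

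Reads on 1598 RP pseudogenes, which are not members, took 0.1124% of assigned reads with triptolide at 100 nM, 0.1259% at 1000 nM and 0.1355% at 10000 nM, and all 9 wells exceeded the highest DMSO well, at 0.0926%. Pseudogene reads per 100 RP reads were 1.07, not above the DMSO mean of 1.17, at 100 nM, and 1.36 at 10000 nM. By well they were 1.291, 1.264 and 1.412 at 1000 nM, and 1.272, 1.465 and 1.347 at 10000 nM. The highest DMSO well was at 1.315, so some wells of both doses lay inside the DMSO range. Pseudogenes are near copies of RP mRNAs, so how RSEM divided reads between them and the members is uncertain, and its part in this result was not tested. Groups of 3 or 18 wells were not tested for single outlying wells.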

How the results depend on the processing

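Counts below are members called (adjusted p under 0.05) against the value in the report. They are given without the share of all genes, so they show how the calls moved and do not single out the members. With the mitochondrial mRNAs as the scale, members higher with triptolide were 0 at each dose (68, 72 and 79 in the report) and lower were 57, 85 and 85 (1, 3 and 3); against homoharringtonine higher were 0 at each dose (43, 64 and 81) and lower 79, 73 and 85 (3, 2 and 2). On that scale the triptolide trend gave 0 rising and 74 falling, homoharringtonine gave 3 higher at 100 nM, 2 higher and 5 lower at 1000 nM, 1 higher at 10000 nM and 44 falling in the trend, pyrazolanthrone 0 higher, and nilotinib 0 higher and 41 lower. With library sizes triptolide gave 4, 5 and 5 lower at the 3 doses and 47 higher at 1000 nM, the triptolide trend 1 rising and 9 falling, homoharringtonine 11 higher and 6 lower at 100 nM, 38 lower at 1000 nM and 1 rising in the trend, the direct test 5 lower at 1000 nM and 5 at 10000 nM, pyrazolanthrone 3 higher, nilotinib 1 higher and 1 lower, and MK-2206 1 higher. With DESeq2 there were 6 rising with triptolide, 1 lower with homoharringtonine at 100 nM, 1 rising in its trend, 4 higher and 1 lower with nilotinib, and 1 higher with MK-2206. Without a filter on low counts 23 were higher with homoharringtonine at 100 nM, 5 lower in the direct test at 100 nM, 14 rising with triptolide, 2 higher with pyrazolanthrone and 1 with nilotinib. With at least 10 counts in every well 24 were higher with triptolide at 100 nM, 19 higher and 2 lower with homoharringtonine at 100 nM and 3 higher at 1000 nM, 9 higher and 24 lower in the direct test at 100 nM and 4 lower at 1000 nM, 0 rising and 8 falling with triptolide, 1 lower with nilotinib and 1 higher with MK-2206. Without libraries under 10 mil 23 were lower with homoharringtonine at 1000 nM, 1 rose and 1 fell with triptolide, and 1 was higher with MK-2206. With fragment length as a covariate 1 rose and 1 fell with triptolide, 1 was higher with pyrazolanthrone, 4 with nilotinib and 1 with MK-2206. The cause of these changes was not tested.

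When 1 treated well was left out at a time, lower calls ranged from 0 to 1 with triptolide at 100 nM, from 9 to 30 with homoharringtonine at 1000 nM and from 3 to 6 in the direct test at 100 nM. Rising calls ranged from 0 to 12 and falling calls from 0 to 3 in the triptolide trend, and rising calls from 0 to 1 in the homoharringtonine trend. Higher calls ranged from 1 to 9 and lower from 0 to 4 with pyrazolanthrone, higher from 1 to 17 and lower from 0 to 12 with nilotinib, and higher from 0 to 1 with MK-2206.

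Same-numbered wells did not deviate together (mean correlation -0.0522 over 52 pairs), so the replicate numbers were not taken as a pairing. The block fits against DMSO used only DMSO replicates 1 to 3 as controls. Their counts thus combine the block with a smaller control group, and the effect of each was not separated. With a replicate block there were 3 lower with triptolide at 100 nM, 0 rising and 0 falling in its trend, 3 lower at 100 nM, 3 higher at 1000 nM and 9 higher at 10000 nM with homoharringtonine, 17 higher and 4 lower with pyrazolanthrone, 13 higher and 12 lower with nilotinib, 15 higher and 49 lower with miglitol, and 1 higher with MK-2206.

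Values that reversed with triptolide at 10000 nM were, with library sizes, RPL4 (-0.05), RPL13A (-0.10), RPL7L1 (-0.52), RPL23 (-0.32) and RPL13 (-0.14), and, on the mitochondrial scale, RPLP0 (-1.45), RPLP1 (-1.47), RPLP2 (-1.53), RPL5 (-1.97), RPL11 (-1.63), RPL3 (-1.82), RPL4 (-2.29), RPL10 (-1.76), RPL8 (-1.98), RPS2 (-1.47), RPS3 (-1.82), RPS15 (-1.67), RPS23 (-1.75), RPS6 (-1.79), RPL6 (-2.03), RPS27A (-1.44), RPL13A (-2.37), RPS19 (-1.55), RPS14 (-1.95), RPL22 (-1.45), RPL3L (-2.45), RPL7L1 (-2.72), RPL22L1 (-2.23), RPL26L1 (-1.80), RPS27L (-1.5), RPL7 (-1.78), RPL26 (-1.78), RPL36A (-1.55), RPL39 (-1.40), RPS27 (-1.54), RPS4X (-1.86), RPS12 (-1.24), RPSA (-1.30), RPS21 (-1.40), RPL23 (-2.58), RPS9 (-1.75), RPS13 (-1.95), RPL10A (-1.69), RPL29 (-2.17), RPL13 (-2.43), RPL31 (-1.89), RPL27A (-1.72) and RPS29 (-1.47). With homoharringtonine RPL10A was at -0.02 on that scale. By TPM the ratio of RPL7L1 to RPL7 differed by -0.0967 at 10000 nM of homoharringtonine, and that of RPL22L1 to RPL22 by 0.239 at 100 nM and 0.0687 at 10000 nM. Without libraries under 10 mil that of RPS27L to RPS27 differed by 0.0243 with triptolide at 10000 nM and 0.0329 with homoharringtonine at 1000 nM.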
